A study of Gallus gallus with 19 samples.

Results

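The response to Nanog knockdown was compared with the response to PouV knockdown in the neural plate border (NPB) of chicken embryos, each knockdown set against the control side of its own embryos. The comparison used all samples of the Nanog and PouV experiments, which were 13 of the 19 bulk RNA sequencing samples of the series. There were 4 Nanog MO samples with 4 control MO samples, and 3 PouV MO samples with 2 control MO samples. A morpholino (MO) is a synthetic oligomer antisense to an mRNA, and those used here block its translation without being designed to remove it. At gastrula stage HH4 one side of each wild-type embryo was given the MO against Nanog or PouV, and the opposite side was given a control MO, so both sides of every embryo had been injected and electroporated. The NPB tissue, labelled as midbrain and neural crest, was collected at HH7/HH8-. By the series description each sample pooled tissue of 3 embryos, whereas the study's methods give a larger pool. PouV MO replicate 4 had no control sample of its own number in the files, so it was set against both PouV controls. The samples of a group are separate pools of embryos, and in bulk tissue fewer cells of a type and less RNA per cell cannot be told apart.

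Nanog is a homeodomain protein and PouV a POU-domain protein, encoded in chicken by POU5F3, and both belong to the network of transcription factors that keeps early embryonic cells pluripotent. The NPB is the ectoderm between the neural plate and the non-neural ectoderm. It later gives rise to neural crest, placodes and dorsal neural tube, and it is marked by transcription factors such as PAX7, MSX1, TFAP2A, ZIC1 and DLX5. Because the factors act in one network, a gene can respond to the loss of both or to the loss of only one. The test for the latter was the difference of the differences, which is the log2 change from control to Nanog MO minus the log2 change from control to PouV MO. It is called the knockdown difference here, and it is above 0 where the level after Nanog knockdown was higher relative to its controls than the level after PouV knockdown. Levels are given as CPM, which are counts scaled to a common library size with the library's TMM factor.

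The 13 libraries held between 31215191 and 44726348 counted reads, and mitochondrially encoded genes took 4.50% to 6.41% of them. PC1, PC2 and PC3 of the log CPM values held 27.4%, 21.4% and 15.4% of the variance. PouV MO replicate 3 lay apart on PC1 with a score of 62.1, against -22.9 to 22.8 in the other 12 libraries, so the main results are also given without it. The 5 NPB markers named above were all expressed, with summed levels of 326 to 412 CPM in the Nanog controls and 359 to 418 CPM in the PouV controls. All 12 endoderm and all 14 mesoderm markers were detected too, with summed levels of 209 to 996 CPM and 354 to 835 CPM over the 13 libraries, so the pools were not border ectoderm alone. The targeted mRNAs do not measure the knockdown, since the MOs block translation. NANOG was at 11.1, 3.56, 6.48 and 4.79 CPM in the 4 Nanog controls and 7.07, 6.400, 4.57 and 7.29 CPM in the 4 Nanog MO samples, which overlap. POU5F3 was at 1149 and 753 CPM in the 2 PouV controls and 1518, 1089 and 1027 CPM in the 3 PouV MO samples, which overlap as well. Against the control of the same replicate number, POU5F3 was higher in PouV MO replicates 1 and 3, by log2 ratios of 0.40 and 0.53. Replicate 4 was 0.11 above the mean of the controls. The knockdown difference of POU5F3 was -0.58 (95% confidence interval -1.15 to -0.014) and did not pass after adjustment. With samples of equal replicate number paired in the fit it was -0.72 and did not pass either. For KLF4, which neither MO targets, the knockdown difference was 0.088 (95% confidence interval -0.56 to 0.73).

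No gene of the 18639 tested passed the test of the knockdown difference after adjustment (edgeR's quasi-likelihood test, Benjamini-Hochberg adjusted p under 0.05, 0% of genes in either direction). At an unadjusted p under 0.05 there were 419 genes, or 2.25% of those tested, of which 215 were above and 204 below 0. The gene with the smallest p was GRSF1. Taken alone, the Nanog effect passed in 31 genes (0.166%), every one with a higher level after MO, with 856 genes (4.59%) at an unadjusted p under 0.05. The PouV effect passed in 0 genes, with 806 (4.32%) at an unadjusted p under 0.05. That Nanog knockdown had called genes and PouV knockdown had none does not show that the responses differ, since the knockdown difference itself called no gene. For the 13707 genes with a mean of at least 1 CPM the median standard error of the knockdown difference was 0.294 on the log2 scale, and the median 95% interval reached 0.6305 to either side. Samples of equal replicate number within an experiment were taken as the MO and control sides of one pool of embryos, which the bilateral injection implies but no label states, and Nanog replicate 4 showed no correlation of its sides. With this pairing as a replicate block, which drops PouV MO replicate 4, 1 gene (0.00538%) was called for the knockdown difference, CRYGN (adjusted p = 0.0372), while 203 genes (1.09%) were called for Nanog knockdown and 28 (0.151%) for PouV knockdown. In that fit 7.23% of genes had an unadjusted p under 0.05 for the knockdown difference. The unpaired fit, its 2.25% and the intervals printed here leave the pairing out, and its part in the low share was not tested. The Nanog calls also rested on single libraries, falling from 31 to 4, 8 and 13 without control replicate 4, 3 or 1 and to 10, 15 and 20 without MO replicate 1, 2 or 3, while the knockdown difference called none without any single library. DESeq2's Wald test on the unpaired samples called 6 genes, or 0.0322%. GRSF1, PPID and PLBD1 were above 0, and CRYGN, NYX and the unnamed gene ENSGALG00000004840 below 0.

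Of the 419 genes at an unadjusted p under 0.05 for the knockdown difference, 215 had an unadjusted p under 0.05 for PouV knockdown alone and 80 for Nanog knockdown alone. A further 8 reached that level for both in opposite directions and 4 for both in one direction, and 112 reached it for neither. Without PouV MO replicate 3, 971 genes (5.23%) had an unadjusted p under 0.05 and still none passed after adjustment, and without PouV control replicate 1 there were 947. The lists with and without PouV MO replicate 3 shared 275 genes, which were 65.6% of the first list and 28.3% of the second. All 414 genes of the first list that were tested in both kept their direction. These genes were chosen by their p in a fit that shares all the other libraries, so that count is largely set by the choice. Across the 13707 genes the Nanog and PouV changes had a Pearson correlation of 0.343, and 0.179 without PouV MO replicate 3. This correlation is over genes, which are not independent, and the 2 experiments share no sample.

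**Figure D1:**
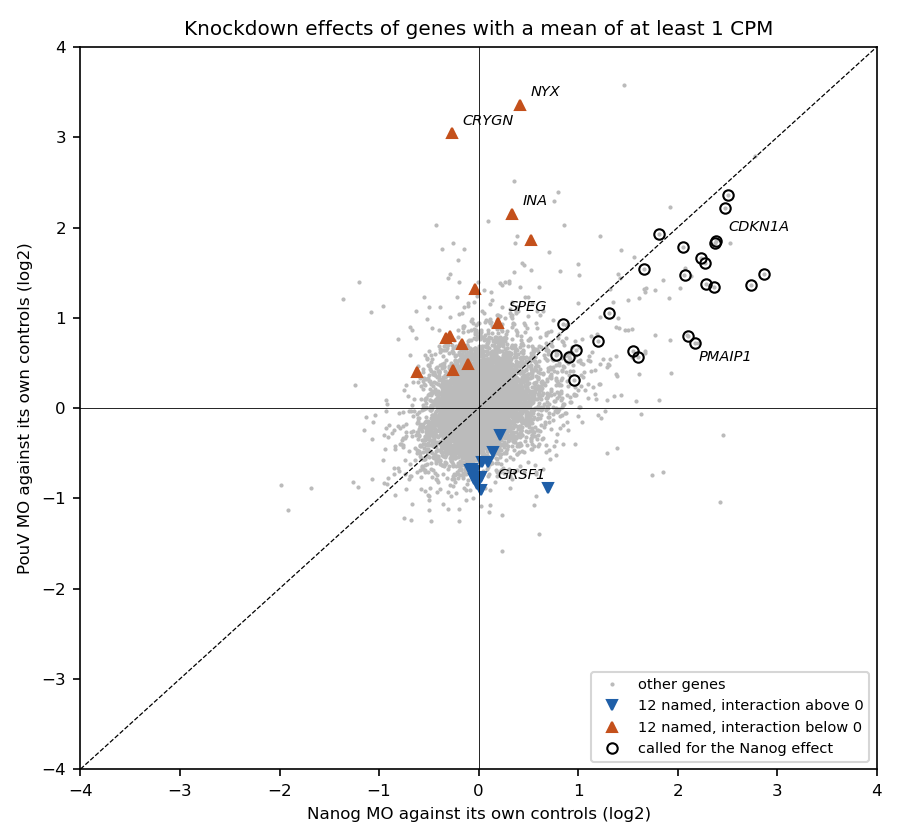
Log2 change after Nanog knockdown (horizontal) against that after PouV knockdown (vertical), each against its own controls, for 13707 genes with a mean of at least 1 CPM; the dashed line marks equal changes. The 12 named genes with the smallest p above 0 (blue triangles) lie below the line, 11 of them close to a Nanog change of 0, the 12 below 0 (orange triangles) lie above it, and the circled genes, which were called for Nanog knockdown, all lie to the upper right.

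The genes with the smallest p for a knockdown difference above 0 had lower levels after PouV MO, while 10 of the 12 named ones had Nanog changes within 0.14 of 0. The 12 named genes of this direction were GRSF1, PPID, PLBD1, SLC37A4, ALDH18A1, IL1RAPL2, NARS2, CNN3, CHM, EXOSC7, ADAR and GNPTAB. None was called by edgeR in the unpaired or the blocked fit, and GRSF1, PPID and PLBD1 were by DESeq2. Their knockdown differences ran from 0.51 to 1.58, and from 0.52 to 1.74 without PouV MO replicate 3. In 10 of the 12 genes all 3 PouV MO libraries lay below all 10 other libraries, a pattern seen in 1.43% of all genes tested. In all 12 the ratios of the PouV samples lay below those of the 4 Nanog pairs, against 5.92% of all genes. Since the 12 were chosen by their p, these counts describe them and are no further test.

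GRSF1, a G-rich RNA-binding protein of the mitochondrial RNA granules, was at 158, 135, 144 and 157 CPM in the Nanog controls and 154, 141, 157 and 150.1 CPM after Nanog MO. It was at 169 and 145 CPM in the PouV controls and 85.3, 95.5 and 96.1 CPM after PouV MO. The 3 PouV MO values did not overlap with any other library. The knockdown difference was 0.78 (95% confidence interval 0.46 to 1.11), made up of a Nanog change of 0.020 and a PouV change of -0.76. PouV knockdown did not pass on its own in the unpaired edgeR fit (adjusted p = 0.146), but with the replicate block it did (adjusted p = 0.0497), as it did by DESeq2 (adjusted p = 2.56e-05).

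SLC37A4, the glucose-6-phosphate transporter of the endoplasmic reticulum, had 76.9 and 77.1 CPM in the PouV controls and 47.01, 46.5 and 49.4 CPM after PouV MO. In the Nanog experiment it had 81.7, 71.4, 86.4 and 87.9 CPM in the controls and 77.2, 71.2, 80.7 and 78.6 CPM after MO. The Nanog groups overlapped, and the PouV MO samples lay below all others and close to each other. For SLC37A4 the knockdown difference was 0.60 (95% confidence interval 0.27 to 0.93), and PouV knockdown alone was called with the replicate block (adjusted p = 0.0345). PLBD1, a lysosomal protein of the phospholipase B family, had 24.3 and 26.5 CPM in the PouV controls and 14.8, 12.9 and 14.7 CPM after PouV MO. The range over the 8 libraries of the Nanog experiment was 20.3 to 25.1 CPM, above all 3 PouV MO values. The knockdown difference of PLBD1 was 0.83 (95% confidence interval 0.42 to 1.24). PPID, a cyclophilin that binds the HSP90 chaperone, had 75.9 and 84.6 CPM in the PouV controls and 52.6, 56.6 and 49.8 CPM after PouV MO. It stood at 69.2 ± 4.99 CPM (SD, n = 4) in the Nanog controls and 73.7 ± 3.49 CPM (SD, n = 4) after Nanog MO, and the knockdown difference was 0.69 (95% confidence interval 0.36 to 1.02).

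EXOSC7, a subunit of the RNA exosome, had the largest knockdown difference of those 10 genes. It was at 57.4 and 64.6 CPM in the PouV controls and 26.05, 42.7 and 28.9 CPM after PouV MO, with replicate 3 the least reduced. The difference was 0.93 (95% confidence interval 0.34 to 1.51), and 1.17 without that replicate. ADAR, the enzyme that deaminates adenosine in double-stranded RNA, was at 129 ± 25.1 CPM (SD, n = 2) in the PouV controls and 80.9 ± 3.92 CPM (SD, n = 3) after PouV MO, against 140.4 ± 15.2 CPM (SD, n = 4) after Nanog MO. NARS2, the mitochondrial asparaginyl-tRNA synthetase, CHM, the Rab escort protein, ALDH18A1, an enzyme of proline synthesis, and GNPTAB, which makes the mannose 6-phosphate tag of lysosomal enzymes, had knockdown differences of 0.64, 0.66, 0.75 and 0.63. In none of these 4 did the PouV MO libraries reach the level of their own controls. INTS2, a subunit of the Integrator complex named after its values were seen, was at 159.5 and 179 CPM in the PouV controls and 100.3, 90.3 and 112 CPM after PouV MO. Its knockdown difference was 0.56 (95% confidence interval 0.19 to 0.93), and it was called for PouV knockdown with the replicate block (adjusted p = 0.0307).

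Only CNN3 and IL1RAPL2 among the 12 also had an unadjusted p under 0.05 for Nanog knockdown, in the direction opposite to PouV. CNN3, an actin-binding calponin, was at 244, 250.1, 251 and 244 CPM in the Nanog controls and 279.9, 289.6, 289 and 289 CPM after Nanog MO, with no overlap. In the PouV experiment the controls were at 260.4 and 324 CPM and the MO samples at 239.8, 255 and 219 CPM, all 3 below both controls. The knockdown difference was 0.51 (95% confidence interval 0.21 to 0.82). IL1RAPL2, a receptor-like protein of the interleukin-1 receptor family, ran from 0.641 to 1.24 CPM in the Nanog controls and 1.13 to 2.00 CPM after Nanog MO. It was at 1.63 and 1.79 CPM in the PouV controls, above the Nanog controls, and 0.804, 1.11 and 0.852 CPM after PouV MO. Its difference was 1.58 (95% confidence interval 0.64 to 2.52), and the part of the unlike control levels in it was not tested.

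The genes with the smallest p for a knockdown difference below 0 were mostly genes that were higher after PouV MO. The 12 named genes were CRYGN, NYX, MMP9, LAMB2, INA, SQSTM1, SLC25A37, GMEB2, CELF3, NLRC3, PTGER2 and LOC425462. None was called in the unpaired edgeR fit, CRYGN was with the replicate block and CRYGN and NYX were by DESeq2. Of these, 11 had an unadjusted p under 0.05 for PouV knockdown alone and 1, NLRC3, for Nanog knockdown alone. Their knockdown differences ran from -3.31 to -0.59, and from -3.20 to -0.54 without PouV MO replicate 3. In 7 of the 12 all 3 PouV MO libraries lay above all 10 others, against 1.21% of all genes tested, and in all 12 the PouV ratios lay above the Nanog ratios, against 4.3%. These 12 were likewise chosen by their p, so the counts describe them and are no further test.

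CRYGN, a member of the gamma crystallin family, had the largest difference. It was at 0.926, 0.459, 0.999 and 0.985 CPM in the Nanog controls, 0.856, 0.475, 0.739 and 0.716 CPM after Nanog MO and 0.623 and 1.37 CPM in the PouV controls. After PouV MO it was at 4.23, 14.9 and 5.75 CPM, with replicate 3 highest and all 3 above every other library. The knockdown difference was -3.31 (95% confidence interval -4.80 to -1.82), and -2.58 without PouV MO replicate 3. With the replicate block it was -3.41 and CRYGN was called. NYX, the leucine-rich repeat protein nyctalopin of the retina, was below 0.6 CPM in the 10 other libraries and at 5.23, 3.14 and 6.76 CPM after PouV MO. Here replicate 3 was the lowest of the 3, and the knockdown difference was -2.94 (95% confidence interval -4.32 to -1.56), and -3.20 without it. PouV knockdown of both genes passed with the replicate block (adjusted p = 0.00798 for CRYGN and 0.00798 for NYX) and by DESeq2 on the unpaired samples (adjusted p = 4.61e-05 and 9.45e-08), and missed the threshold in the unpaired edgeR fit (adjusted p = 0.224 and 0.146).

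INA, the neuronal intermediate filament alpha-internexin, was at 1.45 and 1.26 CPM in the PouV controls and 5.98, 8.74 and 3.44 CPM after PouV MO. It ran from 0.768 to 1.84 CPM over the 8 libraries of the Nanog experiment, and its knockdown difference was -1.82 (95% confidence interval -2.94 to -0.69). MMP9, a matrix metalloproteinase, was at 2.49 and 2.69 CPM in the PouV controls and 5.31, 7.14 and 6.93 CPM after PouV MO, with a knockdown difference of -1.35 (95% confidence interval -2.09 to -0.62). SQSTM1, the autophagy receptor p62, was at 37.3 and 38.7 CPM in the PouV controls and 59.7, 92.1 and 66.6 CPM after PouV MO, and at 38.9 ± 4.37 CPM (SD, n = 4) after Nanog MO. Its knockdown difference was -0.74 (95% confidence interval -1.22 to -0.25), and -0.54 without PouV MO replicate 3. PTGER2, a prostaglandin E receptor, was at 1.19 and 1.21 CPM in the PouV controls and 4.23, 6.03 and 2.804 CPM after PouV MO. In these 4 genes all PouV MO libraries lay above every other library, and INA and PTGER2 were called for PouV knockdown with the replicate block (adjusted p = 0.0306 and 0.0222).

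LAMB2, a laminin beta chain, overlapped between the experiments. It was at 8.76, 11.98, 9.92 and 13.99 CPM in the Nanog controls and 6.85, 10.6, 8.71 and 10.4 CPM after Nanog MO, and at 9.05 and 7.26 CPM in the PouV controls and 14.9, 15.3 and 12.4 CPM after PouV MO. Its knockdown difference of -1.09 (95% confidence interval -1.76 to -0.42) was made up of a Nanog change of -0.29 and a PouV change of 0.80, of which only the latter had an unadjusted p under 0.05. SLC25A37, the mitochondrial iron importer, and GMEB2, a DNA-binding protein, had differences of -0.88 and -0.59. CELF3, an RNA-binding protein of the CELF family, and NLRC3, a NOD-like receptor, had Nanog changes of -0.26 and -0.62 and PouV changes of 0.42 and 0.40. The controls of CELF3 differed between the experiments, with 19.3 to 22.1 CPM in the Nanog controls and 12.7 and 12.2 CPM in the PouV controls. After PouV MO it was at 18.8, 17.7 and 13.5 CPM, still below the Nanog controls. NLRC3 was at 3.86, 3.67, 5.33 and 5.52 CPM in the Nanog controls and 2.61, 2.78, 3.63 and 2.91 CPM after Nanog MO, without overlap, and at 3.83 and 3.33 CPM in the PouV controls and 5.76, 4.46 and 3.93 CPM after PouV MO. Its knockdown difference was -1.02 (95% confidence interval -1.75 to -0.29).

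**Figure D2:**
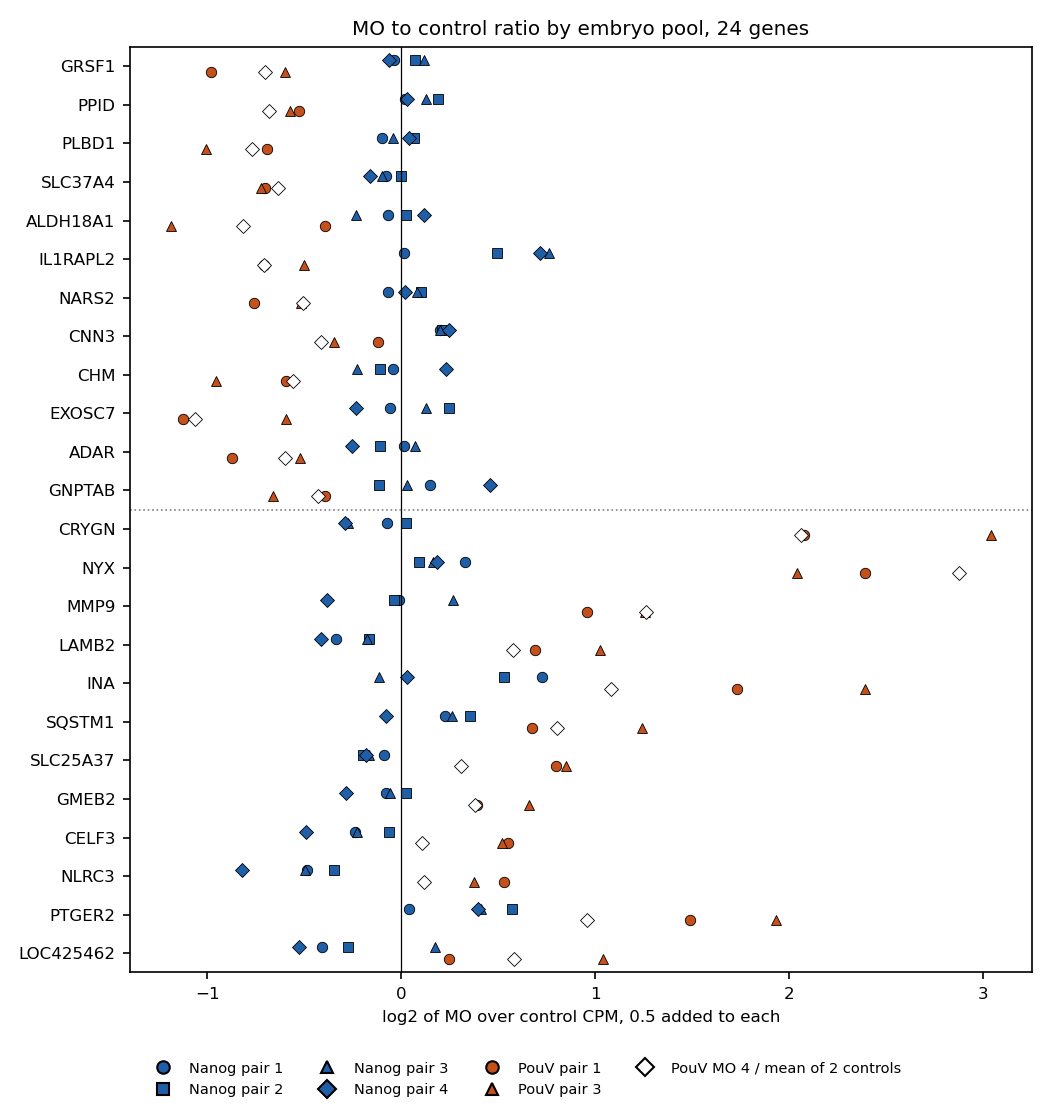
Log2 ratio of MO to control CPM (0.5 added to each) in each of the 4 Nanog and 2 PouV pairs with a shared replicate number, and of PouV MO replicate 4 to the mean of the 2 PouV controls (open symbol), for the 24 named genes. Blue and orange symbols do not overlap in any of the 24 genes, which were chosen by the smallest p; in the upper 12 the Nanog ratios lie around 0, or above it for IL1RAPL2 and CNN3, and the PouV ratios below 0, and in the lower 12 all PouV ratios lie above 0.

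The replicate block called 28 genes for PouV knockdown, 24 higher and 4 lower, and 13 of the 28 also had an unadjusted p under 0.05 for the knockdown difference in that fit (7.23% of all genes did). The PouV change that chose the 28 is also a term of the difference, so that count is largely set by the choice. Among these 13 were the higher genes ZFAND2A, SGPP2 and CLIC2 besides CRYGN, NYX, INA and PTGER2, and the 4 lower genes GRSF1, SLC37A4, INTS2 and ENOX1. Of all 28, however, 26 had a Nanog change of the same sign (58.1% of all genes had changes of 1 sign). In the same fit 16 of the 28 were also called for Nanog knockdown (1.09% of all genes were). ZFAND2A, an AN1-type zinc finger protein linked to the proteasome and known to be induced by arsenite, was at 10.7 and 11.2 CPM in the PouV controls and 28.9, 45.2 and 26.1 CPM after PouV MO. It was at 11.8, 6.15, 13.5 and 10.1 CPM in the Nanog controls and 16.8, 9.499, 19.7 and 10.4 CPM after Nanog MO, where the groups overlap. Its unpaired knockdown difference was -1.17 (95% confidence interval -2.16 to -0.18). SGPP2, a sphingosine-1-phosphate phosphatase, and CLIC2, a chloride intracellular channel protein, had unpaired differences of -1.59 and -1.46, and in both all 3 PouV MO libraries lay above all 10 others. PouV MO replicate 3 was the highest library for these 3 genes. Without it the differences were -0.89 for ZFAND2A, -1.13 for SGPP2 and -1.21 for CLIC2. RIPK3, the kinase that starts necroptosis, was at 0.178 and 0.3298 CPM in the PouV controls and 1.15, 3.37 and 1.46 CPM after PouV MO, and stayed under 0.37 CPM in the Nanog experiment. Neither edgeR fit called it for PouV knockdown, DESeq2 did (adjusted p = 0.00185), and its knockdown difference of -2.41 (95% confidence interval -3.97 to -0.86) was called by none of them.

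**Figure D3:**
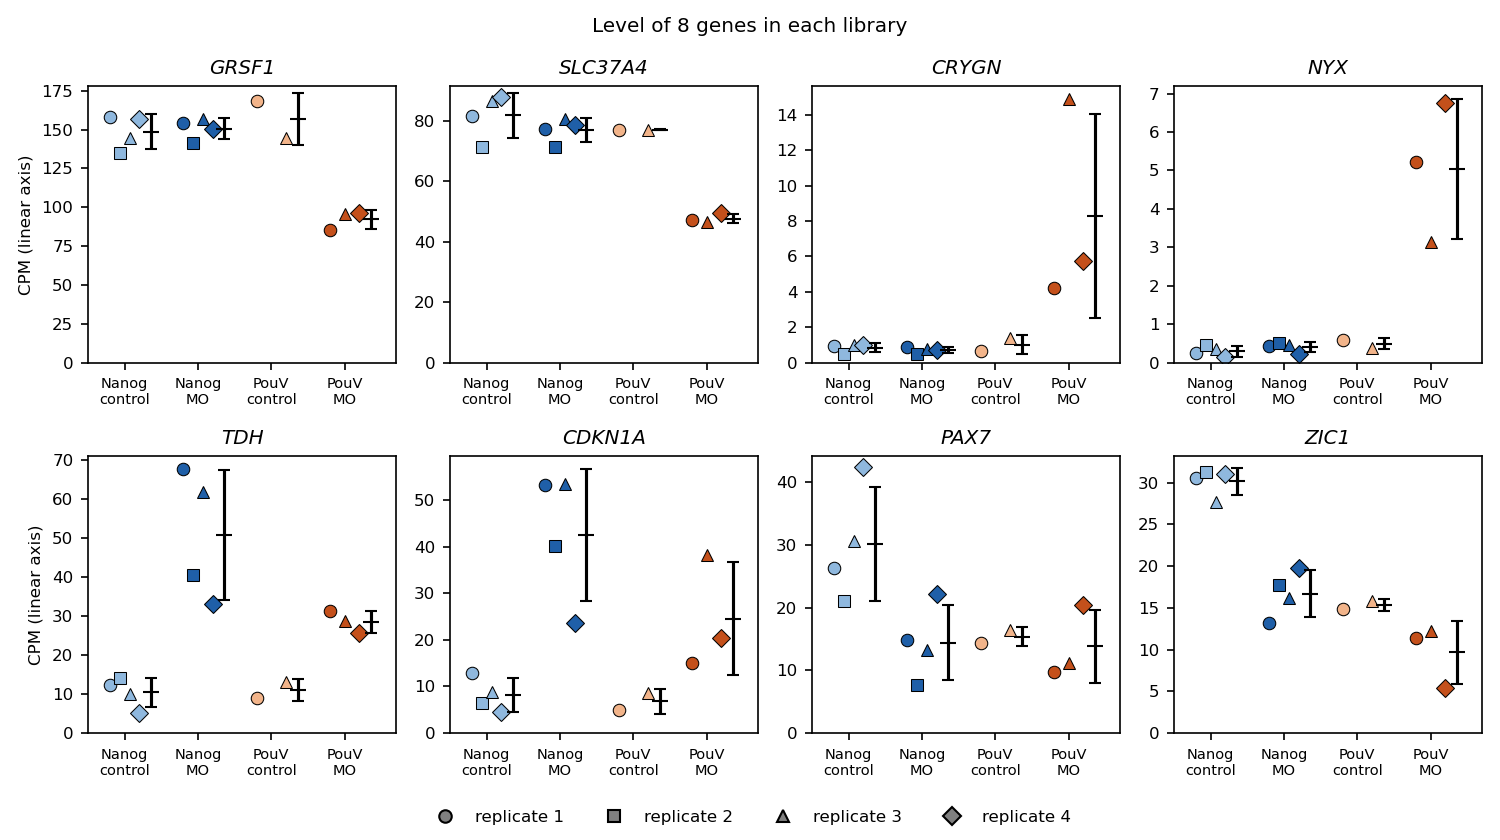
CPM of 8 genes in each library on linear axes that start at 0; symbols mark the replicate number and the bars beside each group the mean and SD. The 3 PouV MO libraries stand below all others for GRSF1 and SLC37A4 and above all others for CRYGN and NYX, TDH and CDKN1A are higher in both MO groups than in their controls, and for PAX7 and ZIC1 the Nanog controls stand above the PouV controls.

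The 31 genes that rose after Nanog knockdown had higher levels after PouV knockdown as well. All 31 had a PouV change above 0 (51.9% of all genes did), from 0.31 to 2.95 with a median of 1.47, beside a Nanog median of 2.24. Of the 31, 28 had an unadjusted p under 0.05 for a higher level after PouV knockdown, against 2.21% of all genes tested, and without PouV MO replicate 3 this held for 23 (3.11% of all genes). In 29 of the 31 all PouV MO samples lay above both PouV controls, against 6.78% of all genes tested, and in 30 all 3 ratios of PouV MO to control were above 0, against 14.9%. The PouV samples took no part in choosing these genes, except through the shared estimate of the spread. None of the 31 was called for PouV knockdown in the unpaired edgeR fit, 9 were with the replicate block and 13 with DESeq2 (0.258% of all genes). The knockdown difference was above 0 in 29 of the 31, with a median of 0.60. As the genes were chosen for a high value after Nanog MO, that excess is partly set by the choice.

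TDH, threonine dehydrogenase, was at 12.4, 14.02, 9.89 and 5.22 CPM in the Nanog controls and 67.7, 40.3, 61.7 and 33.01 CPM after Nanog MO. It was at 8.94 and 12.9 CPM in the PouV controls and 31.3, 28.6 and 25.5 CPM after PouV MO, so MO and control did not overlap in either experiment. The Nanog change was 2.29 (adjusted p = 0.00895), the PouV change 1.38 (adjusted p = 0.789) and the knockdown difference 0.91 (95% confidence interval -0.074 to 1.89). GAS6, the ligand of the TAM receptor kinases, was at 12.5 ± 1.08 CPM (SD, n = 4) in the Nanog controls and 30.9 ± 8.16 CPM (SD, n = 4) after Nanog MO. The corresponding levels in the PouV experiment were 13.7 ± 3.29 CPM (SD, n = 2) and 28.4 ± 4.803 CPM (SD, n = 3), and the knockdown difference was 0.25 (95% confidence interval -0.40 to 0.91). SPEG, a striated muscle kinase, came closest to equal changes, with 0.85 after Nanog MO, 0.93 after PouV MO and a difference of -0.082 (95% confidence interval -0.54 to 0.37). The intervals for TDH and GAS6 include both 0 and differences of more than 0.9, so equal responses were not shown. Without PouV control replicate 3 the differences of GAS6 and SPEG changed sign, to -0.014 and 0.18.

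CDKN1A, PHLDA3 and SESN1 among these genes are on a list of known p53 targets. CDKN1A, the cell cycle inhibitor p21, was at 12.97, 6.38, 8.81 and 4.43 CPM in the Nanog controls and 53.2, 40.03, 53.5 and 23.5 CPM after Nanog MO. It was at 4.93 and 8.68 CPM in the PouV controls and 14.98, 38.3 and 20.5 CPM after PouV MO, where replicate 3 was highest. The Nanog change was 2.38 (adjusted p = 0.0218), and the PouV change of 1.85 missed the threshold in the unpaired edgeR fit (adjusted p = 0.773) and passed with the replicate block (adjusted p = 0.00878) and by DESeq2 (adjusted p = 0.0408). For CDKN1A the knockdown difference was 0.53 (95% confidence interval -0.75 to 1.81), 1.00 without PouV MO replicate 3 and 0.52 with the block. PHLDA3, an inhibitor of AKT, and SESN1, a sestrin, had knockdown differences of 0.26 (95% confidence interval -0.80 to 1.31) and 0.19 (95% confidence interval -0.28 to 0.66). Over the list of 28 p53 targets tested, 17 had a Nanog change above 0 and 11 below, with a median of 0.030. The PouV change was above 0 in 18 and below in 10, with a median of 0.16, so the named members do not stand for the whole list. Of the 28, 3 were called for Nanog knockdown (0.166% of all genes). At an unadjusted p under 0.05, 8 had a higher level after Nanog and 6 after PouV knockdown (2.89% and 2.21% of all genes). At that level 1 was lower after Nanog knockdown (1.7% of all genes). None reached that level for the knockdown difference in the unpaired fit. PMAIP1, which is described below and did reach it, is not on this list. That statement therefore covers the listed genes only and not every p53 target. With the replicate block 8 of the 28 were called for a higher level after Nanog knockdown and 4 after PouV knockdown, against 130 and 24 of all 18587 genes tested. By DESeq2 these were 7 and 2, against 90 and 34 of all 18639. The list median of the knockdown difference was 0.15, against -0.00348 for all genes tested. Without single libraries it ran from -0.092, without PouV control replicate 3, to 0.20, so its direction rests on that control. MDM2, the ubiquitin ligase that degrades p53, was the member with the smallest p. It was at 78.7, 61.6, 69.97 and 52.9 CPM in the Nanog controls and 159.7, 119, 116 and 111 CPM after Nanog MO, without overlap. In the PouV experiment it was at 64.5 and 47.6 CPM in the controls and 85.9, 44.9 and 92.2 CPM after MO, and PouV MO replicate 3 lay below both controls. Its difference was 0.54 (95% confidence interval -0.19 to 1.27), and 0.27 without that replicate. With the replicate block, which drops PouV MO replicate 4, the difference of MDM2 was 0.77. CCNG1, cyclin G1, had a difference of 0.39, and EDA2R, TNFRSF10B and INKA2, 3 further members that were named after their values were seen, had 0.20, 0.41 and 0.39. With the block CCNG1, EDA2R, TNFRSF10B and INKA2 had 0.33, 0.63, 0.30 and 0.19. In that fit MDM2, CCNG1, EDA2R and CDKN1A reached the unadjusted level used above for the knockdown difference. TNFRSF10B, INKA2, PHLDA3 and SESN1 did not reach it, and none of these genes passed after adjustment. In the unpaired fit without PouV control replicate 3, EDA2R, TNFRSF10B, INKA2 and PHLDA3 changed sign, to -0.14, -0.30, -0.58 and -0.26.

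Of the 31 genes, 7 had an unadjusted p under 0.05 for the knockdown difference, all with the larger change after Nanog MO (1.15% of all genes tested had such a p and a difference above 0). The named ones were PMAIP1, PROM2, PRKCH and LOC417131. PMAIP1, the BH3-only protein NOXA, was at 2.59, 1.61, 2.61 and 1.84 CPM in the Nanog controls and 11.98, 9.09, 9.26 and 7.05 CPM after Nanog MO. It was at 2.08 and 1.81 CPM in the PouV controls and 5.09, 2.37 and 2.67 CPM after PouV MO, where replicate 1 stood well above the other MO samples. This gave a knockdown difference of 1.31 (95% confidence interval 0.37 to 2.26), and 1.11 without PouV MO replicate 3. PRKCH, protein kinase C eta, was at 6.27, 5.67, 5.304 and 6.11 CPM in the Nanog controls and 12.5, 10.3, 11.3 and 11.3 CPM after Nanog MO, against 7.63 and 8.57 CPM in the PouV controls and 12.1, 10.7 and 7.34 CPM after PouV MO, which overlap. Its difference was 0.65 (95% confidence interval 0.074 to 1.23). PROM2, a pentaspan protein of membrane protrusions, had a difference of 0.91 (95% confidence interval 0.17 to 1.65). These values are biased towards Nanog by the choice of genes, and none passed after adjustment.

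**Figure D4:**
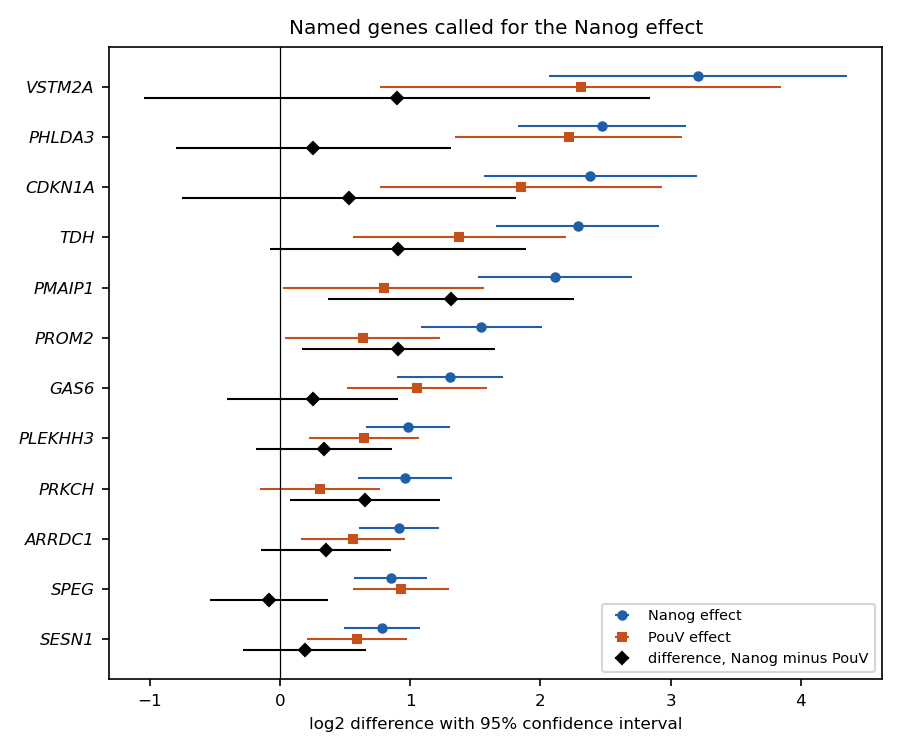
Log2 change after Nanog knockdown (blue), after PouV knockdown (orange) and their difference (black) with 95% confidence intervals for 12 of the genes called for Nanog knockdown that have a gene symbol other than a locus number. All 12 PouV changes lie above 0, and the interval of the difference includes 0 in 9 genes and lies above 0 for PMAIP1, PROM2 and PRKCH.

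Of the 17 NPB specifier genes, 13 had a knockdown difference below 0 and 4 above, with a median of -0.47 against -0.00348 for all genes tested, and none was called. The median change was -0.38 after Nanog and -0.070 after PouV knockdown. Within pools the list median was -0.64, -0.33, -0.37 and -0.50 in the Nanog pairs, -0.12 and -0.089 in the PouV pairs and -0.27 in PouV MO replicate 4. The Nanog values were lower than the PouV values in each case. Without PouV MO replicate 3 the median knockdown difference was -0.066, with 5 of 17 genes above 0, and it was -0.21, -0.25 and -0.30 without Nanog control replicate 1 or PouV control replicate 1 or 3, so its size rests on single libraries. With the replicate block 5 of the 17, PAX7, ZIC1, ZIC2, TFAP2A and TFAP2B, were called for a lower level after Nanog knockdown, against 73 of all 18587 genes tested. In that fit 0 of the 17 were called for PouV knockdown or the knockdown difference. Among the 22 neural plate transcription factors, 6 were also called for a lower level after Nanog knockdown with the block. Their median Nanog change as a list was -0.385 in the unpaired fit, beside -0.38 for the NPB specifiers. The list median of their knockdown difference was -0.063, and -0.39 to 0.17 without single libraries. That of the 18 neural crest specifiers was 0.011, and -0.23 to 0.15, so the difference has no settled direction in either list.

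The member with the smallest p was ZIC2, a zinc finger factor of the dorsal neural plate. It was at 395, 277, 314 and 409 CPM in the Nanog controls and 239.9, 209, 243 and 220.0 CPM after Nanog MO, without overlap, and at 281 and 259.7 CPM in the PouV controls and 264, 258 and 210.3 CPM after PouV MO, which overlap. Its knockdown difference was -0.47 (95% confidence interval -0.92 to -0.017). PAX7, a paired-box factor of the NPB and early neural crest, was at 26.3, 21.1, 30.6 and 42.4 CPM in the Nanog controls and 14.8, 7.64, 13.2 and 22.1 CPM after Nanog MO. In the PouV experiment it was at 14.3 and 16.4 CPM in the controls and 9.81, 11.2 and 20.5 CPM after MO, so replicates 1 and 3 lay below their controls and replicate 4 above. The Nanog change was -1.06 (adjusted p = 0.516, and 0.00219 with the replicate block) and the knockdown difference -0.91 (95% confidence interval -2.01 to 0.19). PAX3, the paralog of PAX7, and GBX2, a homeobox factor of the posterior border, had differences of -1.07 (95% confidence interval -2.28 to 0.15) and -0.65 (95% confidence interval -1.48 to 0.19). For these genes the controls themselves differed between the experiments. PAX7 averaged 30.1 ± 9.06 CPM (SD, n = 4) in the Nanog controls and 15.3 ± 1.505 CPM (SD, n = 2) in the PouV controls, and ZIC1, a zinc finger factor of the border, 30.2 ± 1.65 CPM (SD, n = 4) and 15.3 ± 0.698 CPM (SD, n = 2). ZIC1 was at 13.2, 17.7, 16.2 and 19.8 CPM after Nanog MO and 11.4, 12.2 and 5.36 CPM after PouV MO. The Nanog MO values were thus about those of the PouV controls, the PouV MO values lay below all other libraries, and the knockdown difference was -0.19 (95% confidence interval -0.93 to 0.56), turning to 0.020 without PouV MO replicate 3. TFAP2A and TFAP2B, AP-2 factors of the border and neural crest, had differences of -0.20 and -0.80. The part of the unlike control levels in these differences was not tested.

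Regional transcription factors of the neural plate, named after their values were seen, showed how far the pools of one group differed. PAX6, an eye and neural tube factor, was at 16.8 and 129 CPM in the 2 PouV controls and 10.6, 92.7 and 20.3 CPM in the 3 PouV MO samples. Replicate 3 was high on both sides and replicate 1 low on both sides. In the Nanog experiment PAX6 was at 94.2, 95.3, 86.8 and 136 CPM in the controls and 28.2, 39.5, 41.2 and 62.9 CPM after MO, without overlap. Its unpaired knockdown difference was -0.44 (95% confidence interval -2.56 to 1.67), and 0.97 without PouV MO replicate 3, so its direction is not determined. With the replicate block the Nanog change was called (-1.30, adjusted p = 0.000653) and the knockdown difference was -0.75 and did not pass after adjustment. EN1, a homeobox factor of the midbrain and hindbrain, was lower on the MO side in all 4 Nanog pairs, by ratios of -1.12, -1.66, -1.87 and -1.97 on the log2 scale. The PouV pairs gave -0.85 and -0.50. PAX2, a paired-box factor of the same region, and SP8, a zinc finger factor, were likewise called for Nanog knockdown with the block (adjusted p = 0.0186 and 0.0183). Their unpaired knockdown differences were -1.49 (95% confidence interval -3.39 to 0.42) and -0.95 (95% confidence interval -1.85 to -0.044). Of the 203 genes called for Nanog knockdown with the block, 130 higher and 73 lower, 72 had an unadjusted p under 0.05 for the knockdown difference in that fit, 49 of them among the higher genes and 23 among the lower (7.23% of all genes had one). That count is partly set by the choice too, since the Nanog change is a term of the difference. Of the 203, 185 had a PouV change of the same sign (58.1% of all genes did).

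In the Notch pathway, in which DLL1 is a ligand and HES5 a target, 4 of 22 genes had an unadjusted p under 0.05 for the knockdown difference, all below 0, against 1.09% of all genes tested. They were DLL1, HES5, MFNG and DTX4, and none was called. HES5 was at 1.83, 1.84, 3.61 and 1.41 CPM in the Nanog controls and 0.495, 1.13, 1.55 and 0.217 CPM after Nanog MO, and at 1.04 and 3.02 CPM in the PouV controls and 1.96, 4.23 and 7.97 CPM after PouV MO. It was lower on the MO side in all 4 Nanog pairs and higher in both PouV pairs, with a knockdown difference of -2.57 (95% confidence interval -4.58 to -0.56). DLL1 was at 42.2, 44.6, 34.6 and 37.1 CPM in the Nanog controls, 37.8, 33.6, 41.9 and 24.6 CPM after Nanog MO, 27.1 and 36.7 CPM in the PouV controls and 73.2, 41.7 and 40.96 CPM after PouV MO. PouV MO replicate 1 stood far above the other libraries, the Nanog groups overlapped, and the difference was -0.90 (95% confidence interval -1.64 to -0.17). MFNG, a glycosyltransferase that modifies Notch receptors, and DTX4, a Deltex ubiquitin ligase, had differences of -1.13 (95% confidence interval -2.07 to -0.18) and -0.45 (95% confidence interval -0.86 to -0.045). NRARP, a feedback inhibitor that is itself a Notch target, had changes of -0.77 after Nanog MO and -0.36 after PouV MO and a difference of -0.41 (95% confidence interval -1.20 to 0.38). The median of the 22 genes was -0.22, -0.32 without PouV MO replicate 3, -0.032 without PouV MO replicate 4 and 0.0080 with the replicate block.

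The 13 HOX genes tested, which mark the hindbrain and more posterior levels, had a median knockdown difference of -2.13, with 10 genes below 0, -2.60 without PouV MO replicate 3, -1.13 without Nanog control replicate 2, -1.04 without PouV MO replicate 4 and -0.77 with the replicate block. None was called, and 1, HOXD4, had an unadjusted p under 0.05 (2.25% of all genes tested did). HOXB3 was at 0.327 and 0.302 CPM in the PouV controls and 1.34, 0.429 and 3.35 CPM after PouV MO, with a difference of -2.18 (95% confidence interval -4.47 to 0.12). Over the list the median ratio was 0.54 and 0.19 in the PouV pairs and 1.45 in PouV MO replicate 4, which has no control of its own number and which the block drops. The paraxial mesoderm markers TBX6 and TCF15 had differences of -1.17 and -0.73, in the same direction as the HOX genes. The list of 14 mesoderm markers did not share that direction, with 7 above and 7 below 0 and a median difference of 0.010. The summed level of the 14 mesoderm markers ran from 457 to 577 CPM in the PouV controls and 526 to 835 CPM in the PouV MO samples. Its part in the HOX values was not tested.

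Genes of large protein complexes had knockdown differences that rested on 1 library, PouV MO replicate 3. Of 71 cytosolic ribosomal protein genes, 67 had a difference below 0 (50.6% of all genes tested did), with a median of -0.26, and none was called. Within pools the median was 0.61 in PouV pair 3, -0.018 in PouV pair 1 and -0.14 in PouV MO replicate 4, and from -0.33 to 0.20 in the Nanog pairs. Without PouV MO replicate 3 the median difference turned to 0.10, with 62 of 71 genes above 0. The 69 subunits of oxidative phosphorylation went from -0.12 to 0.12 and the 71 mitochondrial ribosomal proteins from -0.061 to 0.14 without that library. RPS2, the ribosomal protein gene with the smallest p, had a difference of -0.54, and -0.27 without it. The 35 proteasome subunits had a median of -0.20 with 29 genes below 0, and 0.032 without the library. PSMD1, a subunit of the proteasome's regulatory particle and the member with the smallest p, had -0.38 and -0.24.

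The 43 S phase genes had a list median above 0 without any single library as well, from 0.10 to 0.21. Their median knockdown difference was 0.16, with 37 of 43 above 0 (49.4% of all genes were), and 0.14 without PouV MO replicate 3, again with 37 above 0. The median change was -0.088 after Nanog and -0.24 after PouV knockdown. Every pool had a median below 0, from -0.10 to -0.028 in the Nanog pairs and from -0.27 to -0.16 in the PouV samples. At an unadjusted p under 0.05, 10 of the 43 had lower levels after PouV knockdown and none after Nanog knockdown (2.11% and 1.7% of all genes), but none reached that level for the knockdown difference. POLA1, the catalytic subunit of DNA polymerase alpha, CDC45, a subunit of the replicative helicase, and E2F8, a repressor of the E2F family, had differences of 0.30, 0.29 and 0.40. The 47 G2/M genes had a median of 0.061, and 0.0095 without PouV MO replicate 3, whose own pair had the lowest median of all (-0.51).

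**Figure D5:**
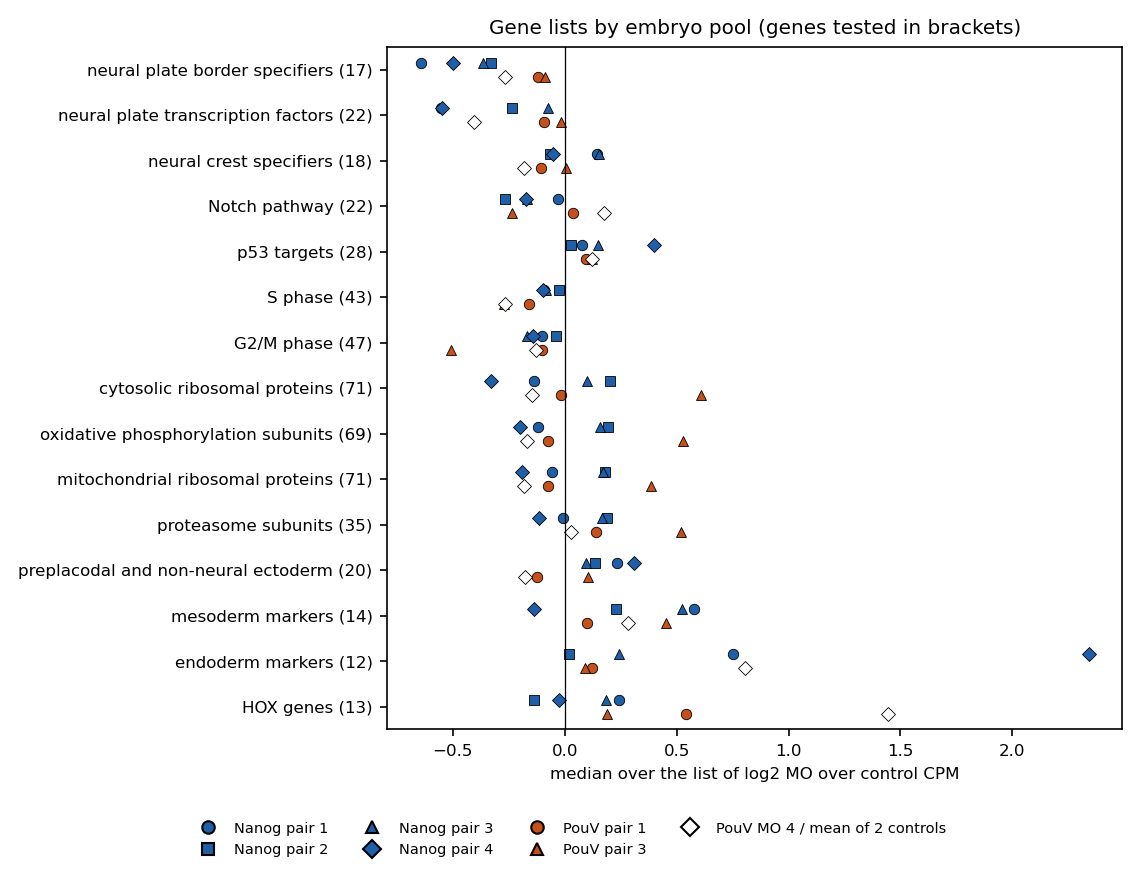
Median over each gene list of the log2 ratio of MO to control CPM, by embryo pool; blue symbols are the 4 Nanog pairs, filled orange symbols the 2 PouV pairs and open symbols PouV MO replicate 4 against the mean of the 2 PouV controls, and the number of genes tested stands in brackets. PouV pair 3 stands apart for the ribosomal protein, oxidative phosphorylation, proteasome and G2/M lists, Nanog pair 4 for the endoderm markers and PouV MO replicate 4 for the HOX genes.

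Among the genes with a symbol that were called for Nanog knockdown with the replicate block, TLL1 had the smallest p for the knockdown difference in the unpaired fit. TLL1, a tolloid-like metalloproteinase that in vertebrates cleaves the BMP antagonist chordin, was at 45.4, 50.4, 49.7 and 36.5 CPM in the Nanog controls and 70.96, 61.7, 63.96 and 62.7 CPM after Nanog MO, without overlap. It was at 51.6 and 53.9 CPM in the PouV controls and 51.4, 49.9 and 47.4 CPM after PouV MO, all close together. The Nanog change was 0.51, the PouV change -0.090 and the knockdown difference 0.60 (95% confidence interval 0.21 to 0.99), and 0.60 without PouV MO replicate 3. The difference of TLL1 did not pass after adjustment. As TLL1 was chosen by its Nanog call and by this p, the size of the difference is partly set by the choice. WNT1 and SP5, a ligand and a target of the Wnt pathway, had differences of -0.96 and -0.65, and SFRP1, a secreted Wnt inhibitor, 0.71. SFRP1 alone of the 44 Wnt pathway genes had an unadjusted p under 0.05 (2.25% of all genes tested did), and none was called.

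Markers of other tissues moved with single pools. The 12 endoderm markers had a median knockdown difference of 0.39 with none called, 0.18 without Nanog MO replicate 4 and 1.23 without Nanog control replicate 2, and the median ratio was 2.34 in Nanog pair 4, from 0.018 to 0.75 in the other Nanog pairs and from 0.089 to 0.80 in the PouV samples. The 20 preplacodal and non-neural ectoderm genes had 0.26, with 16 above 0, and 0.069 to 0.46 without single libraries, namely Nanog MO replicate 2 and PouV MO replicate 3. KRT8, a keratin of simple epithelia, had the smallest p among them (difference 0.65). The 10 blood and endothelium markers tested had 0.45, and -0.35 to 0.96 without PouV control replicate 3 or PouV MO replicate 3, and GATA1 and HBM were not among the genes tested. Immediate early genes, which respond to dissection, summed to 544 to 601 CPM after Nanog MO and 444 to 705 CPM after PouV MO. The part of these markers in the knockdown differences was not tested.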

How the data were processed

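The 13 libraries came from an ultra-low input preparation sequenced in paired-end mode. Reads were aligned with STAR 2.7.2a to GRCg6a (submitters' processing notes), and the deposited raw counts per Ensembl gene were used as the authors left them; settings of the counting and any use of strand are not given in the sources used here. A second deposited table holds the same counts as a signal scaled by the authors to library size and TMM factor, and was used only for gene names. Of the 18639 genes tested, 12411 took a symbol from it, 1812 from RefSeq by gene ID (GRCg7b, names only) and 2 from a supplementary table, and 4414 had none. A deposited table of filtered counts was not used. The study's own methods removed unwanted variation with RUVs and set each knockdown against all controls, whereas here each knockdown was set against its own controls.

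Genes with more than 5 counts in at least 1 of the 13 libraries were kept from 24356, and edgeR 4.0.16 (R 4.3.3) fitted the 4 groups by its quasi-likelihood method with TMM scaling and Benjamini-Hochberg adjustment at 0.05. CPM are counts scaled to a common TMM-adjusted library size, and pair ratios had 0.5 CPM added. Confidence intervals are at 95% and assume the fitted spread between pools. The p-values measure only the spread between these pools. Same-numbered MO and control samples were taken as sides of the same embryos, an inference from the bilateral design, and their deviations from the group means, over 13707 genes, correlated with r = 0.630, 0.650, 0.548 and -0.00128 in Nanog replicates 1 to 4 and 0.672 and 0.566 in PouV replicates 1 and 3. The 24 alternatives included this replicate block, as a fixed term or as a random effect in limma 3.58.1, 1 RUVs factor from 1000 control genes, DESeq2 1.42.0, other scaling, filters and sample sets, and each library left out. Only the unpaired edgeR fit, for the knockdown difference, was tested on simulated data with known changes. The simulated libraries were drawn independently, without correlated sides of a pool. The other fits were not tested in this way.

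Named genes were the 3 genes targeted in the series and, in each direction, the 12 genes with a symbol and a mean of at least 1 CPM with the smallest p, since none was called. Up to 4 genes of each of 38 lists followed by the smallest p. The genes called for the Nanog effect, the regional factors, RIPK3, TLL1, genes called only with the block or DESeq2, and EDA2R, TNFRSF10B, INKA2, ZIC1, TFAP2A, TFAP2B and NRARP had been looked at before they were named. The comparison and the lists were chosen with earlier results of these data known. A permutation test of list means over pairs had been planned and is not given. Some genes that these rules name are not reported here.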

Additional observations from a re-analysis of the deposited data

Results flagged for a closer look

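Of 56 groups of 4 libraries examined for a single library far from the others, 3 had one, and chance alone flags about 1 in 20 groups. NARS2 was at 45.02 CPM in Nanog MO replicate 3, against 39.2, 38.3 and 39.04 CPM in the other Nanog MO samples. CNN3 was at 279.9 CPM in Nanog MO replicate 1, against 289.6, 289 and 289 CPM, a small gap in a group with little spread that still lay above all 4 controls. CRYGN was at 0.459 CPM in Nanog control replicate 2, against 0.926, 0.999 and 0.985 CPM in the other Nanog controls. All 3 genes are among the 24 with the smallest p, but the 56 groups cover only a small choice of genes. Only the Nanog control and Nanog MO groups hold 4 libraries, so no PouV library could be flagged. The Nanog and PouV changes were 0.035 and -0.60 for NARS2, 0.21 and -0.30 for CNN3 and -0.27 and 3.05 for CRYGN.

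CRYGN was the only gene whose response to the 2 knockdowns differed by the test of the difference itself in a paired edgeR fit, with -3.41 and an adjusted p of 0.0372 with the replicate block. That fit holds 2 PouV pairs, and of these pair 3 had the larger ratio (3.04 against 2.08). PouV MO replicate 4, which the block leaves out, gave 2.06 against the mean of the controls.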

How the results depend on the processing

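The knockdown difference called 0 genes by edgeR under all alternatives but the replicate block, which called 1. DESeq2 called 6, and at an adjusted p under 0.1 the unpaired edgeR fit still called 0. The Nanog effect, with 31 called genes, gave 203 with the replicate block, 202 with the block as a random effect, 805 with the block and 1 RUVs factor (318 higher and 487 lower), 101 with DESeq2 and 47 when PouV MO replicate 3 and Nanog control replicate 2 were both left out, a setting chosen after seeing the data. Leaving out single libraries gave 4 to 41. The PouV effect, with 0, gave 28 with the replicate block, 30 with the random effect, 104 with the block and 1 RUVs factor and 48 with DESeq2. The cause of these moves was not tested. The 24 genes with the smallest p kept the sign of their knockdown difference in 576 of 576 values over 24 alternatives. They were chosen by the p of this difference and the alternatives reuse the same libraries, so that count is largely set by the choice. Of 1823 alternative values for 76 named genes, 1794 kept direction and side of the threshold, 7 newly passed it and 22, in 11 genes, changed sign. With 1 RUVs factor NANOG turned to 0.10, and with both libraries left out KLF4 turned to -0.021, EDA2R to -0.037, ZIC1 to 0.038 and PAX6 to 0.93. Leaving out single libraries, NANOG ran from -0.81 to 0.42, KLF4 from -0.37 to 0.44, PHLDA3 from -0.26 to 0.62, GAS6 from -0.014 to 0.47, SPEG from -0.40 to 0.18, VSTM2A from -0.57 to 1.58, EDA2R from -0.14 to 0.66, TNFRSF10B from -0.30 to 0.87, INKA2 from -0.58 to 0.95, ZIC1 from -0.49 to 0.020 and PAX6 from -2.57 to 0.97. Of 912 alternative values for 38 list medians, 68 moved by more than the spread between replicates. With 2 PouV controls, leaving out 1 leaves a lone sample that is assumed to vary like the other groups. The median interval of 0.63 to either side is not adjusted for the number of genes tested, so it is no limit of detection. In genes with intervals at least that wide, smaller differences could not be told from 0 even before adjustment. Much larger ones, such as -3.31 for CRYGN, did not pass after adjustment in the unpaired edgeR fit.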

Other observations

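Further gene lists held single members with a knockdown difference at an unadjusted p under 0.05, none of which was called. Of all genes tested 2.25% reached that level, so single members say little about their lists. NBN, a subunit of the complex that senses DNA double-strand breaks, had a difference of 0.74, with a Nanog change of 0.043 and a PouV change of -0.69, and was the only one of 73 DNA repair genes at that level. MARS, the cytosolic methionyl-tRNA synthetase, had 0.32, and 14 of the 19 aminoacyl-tRNA synthetase genes lay above 0 with a median of 0.10. FGF2, a fibroblast growth factor, had -1.58, with a PouV change of 1.75, while the 24 FGF pathway genes had a median of -0.12.

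Some other lists had a median close to that of all genes in the unpaired fit. The 25 BMP pathway genes had a median of 0.042, the 27 genes of the apoptosis machinery 0.0061 and the 22 cadherin, junction and EMT genes 0.025. With the replicate block the BMP median was 0.21, with 19 of 25 above 0. Without PouV MO replicate 3 the apoptosis median was 0.096, with 20 of 27 above 0. In the retinoic acid list ALDH1A2, the enzyme that makes retinoic acid, had the smallest p of 15 genes, with a difference of -1.52, a Nanog change of 0.39 and a PouV change of 1.91. All 7 notochord and organizer markers had a difference above 0, with a median of 0.52. Without single libraries that median ran from -0.27 to 1.06. SOX3, a factor of the neural plate, had a difference of -0.50, with a Nanog change of -0.49 and a PouV change of 0.0085.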
